A study of Homo sapiens with 6 samples.

Results

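The genes described here are the 23 that were higher in each library of cells depleted of CIRBP than in each control library, by at least 1.5-fold, out of 58884 genes in the table and 10686 genes with a mean of 5 or more CPM (the estimated count of a gene divided by the library total and scaled to 1e6). A gene was included when its lowest CPM among the 3 CIRBP siRNA libraries was at least 1.5 times its highest CPM among the 3 control libraries. At this level 28 genes met the condition, and 5 of them (RHOB, OGFR, TUBB3, ZDHHC16 and PODXL) were set aside by name. The genes were selected on the CPM values of these same 6 libraries, so the size and direction of their differences are given as a description, with no test.

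RNA-seq had been carried out on immortalized human cardiomyocytes, 3 libraries from cells given negative control siRNA (NC) and 3 from cells given siRNA against CIRBP (SiCIRBP), with no drug treatment in either group. The labels name the cell line as T0519, whereas the study's text describes this experiment in AC16, another immortalized human ventricular cardiomyocyte line, and the time after transfection is not given in the sources used here. The sources used here do not state that replicates came from separate cultures, so the spread between them may be technical. The study left NC_1 and SiCIRBP_2 out of its own comparison, and the fit used below for other genes was made both over the remaining 4 libraries and over all 6.

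CIRBP, the cold-inducible RNA-binding protein, attaches to mRNAs and can change how long they last and how much they are translated. It is induced by mild cold and other stresses. Genes that go up when such a protein is depleted can do so by many routes, and an RNA-seq level does not tell a more stable transcript from a more actively made one.

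CIRBP itself separated the groups in the direction of the labels. Its CPM was 88.1, 85.9 and 92.7 in NC_1, NC_2 and NC_3, and 54.4, 23.7 and 45.6 in SiCIRBP_1, SiCIRBP_2 and SiCIRBP_3. Library totals were between 25726259 and 29919566 estimated counts. SiCIRBP_2 stood apart in a list of 28 interferon-stimulated genes, whose median log2 difference from the NC mean was 3.42 there, against 0.73 in SiCIRBP_3 and -0.80 in SiCIRBP_1. Of 16 cardiomyocyte markers, MYH6, MYL2, RYR2, PLN and MYBPC3 were listed at 0 TPM (a level that also takes the length of the transcript into account) in all 6 libraries and TNNT2 reached at most 0.33, while GATA4 was between 22.6 and 63.0 TPM and ACTN2 between 7.86 and 15.9. The fibroblast marker COL1A1 was between 320 and 1158 TPM, whereas LUM was at 0 in all 6 libraries and POSTN reached at most 0.38. Of the epithelial markers, KRT18 was between 938 and 1608 TPM, while EPCAM reached at most 0.45 and CDH1 at most 0.12. In all, 3 of the 16 cardiomyocyte markers, 7 of 10 fibroblast markers and 2 of 6 epithelial markers reached 1 TPM in every library. Most contractile genes of the labelled cell type were absent or nearly so.

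The condition was met by 0.262% of the genes with a mean CPM of 5 or more, a share that depends on the threshold and from which nothing is read. Its mirror image, a lowest NC value of at least 1.5 times the highest SiCIRBP value, was met by 74 genes (0.692%). Over the 23 genes the median log2 difference between the groups was 0.98 on the log2(CPM + 1) scale, from 0.70 in PCDH9 to 1.77 in ECM1, where the median over the 10686 genes was -0.06. The median difference was 0.92 for SiCIRBP_1, 1.07 for SiCIRBP_2 and 0.94 for SiCIRBP_3 against the NC mean. SiCIRBP_1 had the highest SiCIRBP value in 5 genes, SiCIRBP_2 in 11 and SiCIRBP_3 in 7. These are 21.7%, 47.8% and 30.4% of the 23, where the shares of the 10686 genes were 34.7%, 40.4% and 24.9%. NC_1 was the highest of the NC libraries in 19 of 23, compared with 43.3% of the 10686 genes. The part of NC_1 and SiCIRBP_2 in these values was not tested.

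**Figure D1:**
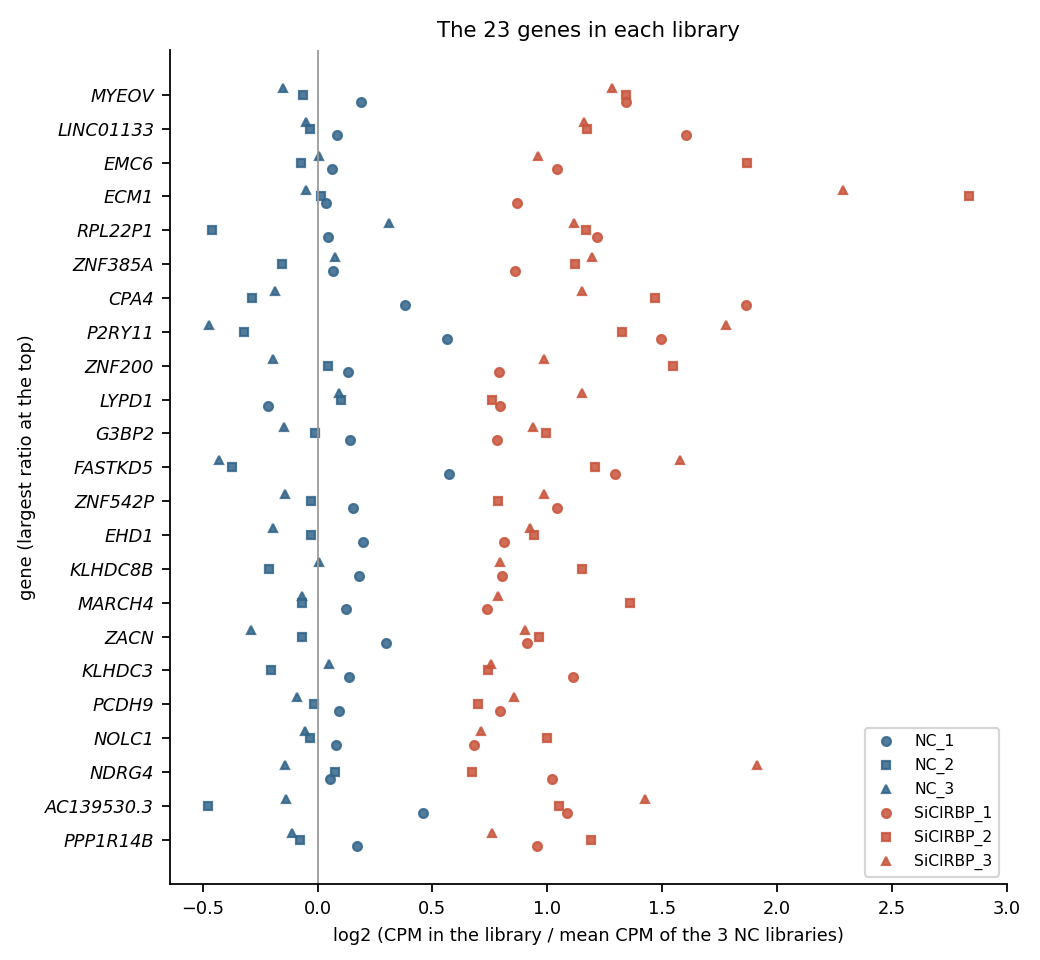
The 23 genes in each of the 6 libraries, as log2 of the CPM in a library over the mean CPM of the 3 NC libraries, ordered by the ratio of lowest SiCIRBP to highest NC value (1 point per library, no error bars). All red SiCIRBP points lie to the right of all blue NC points of the same gene, as the choice of genes requires, and ECM1 and NDRG4 have the widest SiCIRBP spread.

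Close to the threshold, PPP1R14B had a ratio of lowest SiCIRBP to highest NC value of 1.502, AC139530.3 of 1.51 and NDRG4 of 1.51. Just outside it were CACFD1 at 1.48, GPR39 at 1.48 and SLC35E4 at 1.47. Among the 23, the ratio reached 2 in MYEOV at 2.13 and LINC01133 at 2.11, and in no other.

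**Figure D2:**
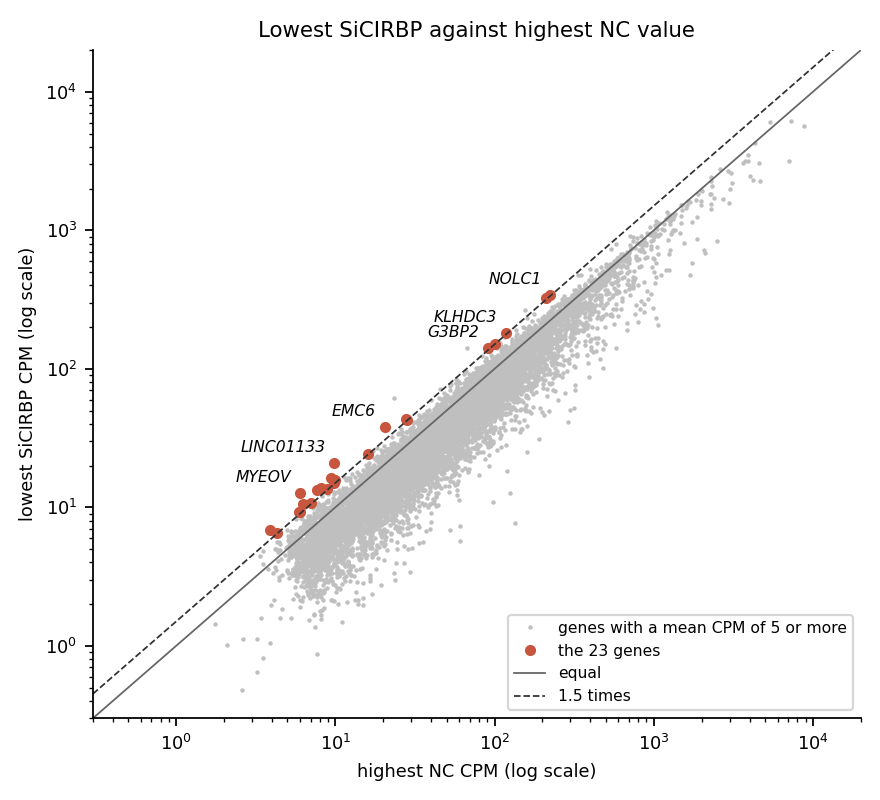
Lowest SiCIRBP CPM against highest NC CPM for genes with a mean CPM of 5 or more (grey, both axes on a log scale; 1 gene lies outside the axes), with the 23 genes in red. The solid line marks equal values and the dashed line a ratio of 1.5, and grey points above the dashed line are the 5 genes set aside by name.

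Genes of secreted and cell-surface proteins are described first. ECM1 encodes a secreted glycoprotein of the extracellular matrix that is mutated in lipoid proteinosis. Its CPM was 3.86, 3.81 and 3.64 in the NC libraries, and 6.88, 26.9 and 18.4 in SiCIRBP_1, SiCIRBP_2 and SiCIRBP_3. The NC mean was 3.77 ± 0.115 (SD, n = 3), whereas the SiCIRBP values differed among themselves by 3.91-fold, the widest range of any of the 23, with a mean 4.61 times that of NC. CPA4, a zinc carboxypeptidase that cuts single residues from the C-terminal end of proteins, had a CPM of 6.22, 3.93 and 4.21 in NC and 17.4, 13.3 and 10.6 in SiCIRBP. NC_1 was the highest control and SiCIRBP_1 the highest of all, and the mean was 2.88 times that of NC.

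ECM1 and CPA4 also had letters in common before their start sites, which the choice of genes did not use. The stretches below are shown because both hold the letters TATAAA and TGANTCA (the AP-1-like motif) on the strand shown, in capitals, with GGGCGG also in capitals for ECM1. They are the last 100 bases before the RefSeq start site of CPA4 (GRCh38.p14, chr7:130293061-130293160, plus strand) and 97 of the last 100 before that of ECM1 (GRCh38.p14, chr1:150508009-150508105, plus strand).
CPA4: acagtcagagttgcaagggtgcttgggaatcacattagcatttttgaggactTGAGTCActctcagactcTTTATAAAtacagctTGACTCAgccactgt
ECM1: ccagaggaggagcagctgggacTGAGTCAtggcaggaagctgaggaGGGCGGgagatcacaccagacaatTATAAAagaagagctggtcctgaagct
GENCODE 29 places the gene starts earlier than RefSeq, so that the TATAAA of ECM1 and the second TGANTCA of CPA4 lie inside the annotated gene, and the TATAAA of CPA4 lies across its annotated start. CPA4 had TGANTCA at 2 places and TATAAA read on both strands. Both promoters were poor in CpG, with 1 CpG in 300 bases for CPA4 and 3 for ECM1. The median over 35116 RefSeq promoters was 14. Neither set of letters, nor a low CpG number, was particular to the pair. Of 24 promoters matched for the genes described here, 4 held TATAAA, among them promoters of EHD1 and NDRG4, and 3 held TGANTCA. Over these 24 the CpG number ranged from 1 to 49, and LINC01133 also had 1.

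The surface receptor P2RY11 couples extracellular ATP to G proteins. It had a CPM of 8.13 in NC_1, 4.40 in NC_2 and 3.95 in NC_3, and of 15.5, 13.8 and 18.8 in the SiCIRBP libraries. NC_1 lay between the other controls and the SiCIRBP values, and the ratio of mean values was 2.92. Of the 9 other P2Y receptors, only P2RY2 was expressed enough to be tested, and it had between 0.368 and 0.751 CPM in NC and between 0.492 and 0.613 in SiCIRBP.

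LYPD1 encodes a small GPI-anchored protein of the Ly6 family that acts on nicotinic acetylcholine receptors. Its CPM was 8.03, 10.0 and 9.96 in NC and 16.2, 15.8 and 20.7 in SiCIRBP, and it is the 1 gene of the 23 in which NC_1 was the lowest control. PCDH9, a non-clustered protocadherin of cell adhesion, spanned 6.24 to 7.08 CPM in NC and 10.8 to 12.01 in SiCIRBP, the smallest difference of the 23. ZACN, a zinc-activated cation channel, spanned 18.8 to 28.2 CPM in NC and 43.0 to 44.8 in SiCIRBP, so that its SiCIRBP values lay closer together than its controls.

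Genes of membrane insertion, membrane traffic and protein turnover formed another set. EMC6 is a core subunit of the endoplasmic reticulum membrane complex, which inserts transmembrane segments. Its CPM was 20.5, 18.6 and 19.7 in NC, and 40.4, 71.8 and 38.1 in SiCIRBP, so that SiCIRBP_2 was far above SiCIRBP_1 and SiCIRBP_3, which nonetheless exceeded the controls by 1.86-fold or more. Its mean TPM was 62.3 ± 1.98 in NC and 146 ± 44.9 in SiCIRBP (SD, n = 3 each).

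EMC6 has a promoter of the opposite kind from those of ECM1 and CPA4. The last 100 bases before its RefSeq start site (GRCh38.p14, chr17:3668712-3668811, plus strand) are shown with GGGCGG, the Sp1-like box, in capitals, and the 300-base promoter holds 38 CpG.
EMC6: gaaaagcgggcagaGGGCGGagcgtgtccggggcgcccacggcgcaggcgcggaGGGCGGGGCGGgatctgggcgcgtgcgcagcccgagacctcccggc
The letters GGGCGG occur at 3 places on the strand shown, of which a pair overlap.

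EHD1, an ATPase of endocytic recycling, had 74.9 ± 6.72 TPM in NC and 126 ± 11.02 in SiCIRBP (SD, n = 3 each). Its CPM was 212, 181 and 162 in NC and 324, 355 and 351 in SiCIRBP, a ratio of means of 1.86. MARCH4, a membrane-bound ubiquitin ligase, spanned 8.55 to 9.77 CPM in NC and 14.9 to 23.01 in SiCIRBP, with SiCIRBP_2 the highest.

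KLHDC3 is a kelch-repeat substrate receptor of a cullin ubiquitin ligase that recognises the C-terminal end of proteins. It had a CPM of 119, 93.8 and 112 in NC and 234, 180 and 182 in SiCIRBP, with SiCIRBP_1 the highest. KLHDC8B, another kelch-repeat protein, located at the midbody of dividing cells, had 8.87, 6.76 and 7.85 CPM in NC and 13.7, 17.4 and 13.6 in SiCIRBP. The SiCIRBP means were 1.84 and 1.90 times the NC means, at levels that differed widely, 101 ± 12.8 TPM for KLHDC3 and 7.26 ± 0.180 TPM for KLHDC8B in NC (SD, n = 3 each).

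Proteins that act on RNA made up another set. G3BP2 is an RNA-binding protein that nucleates stress granules. Its CPM was 91.3, 82.3 and 74.9 in NC and 142, 165 and 159 in SiCIRBP. The ratio of its lowest SiCIRBP to its highest NC value was 1.56. NOLC1 (Nopp140), which escorts small nucleolar ribonucleoproteins between nucleolus and Cajal body, had 224, 208 and 204 CPM in NC and 340, 424 and 347 in SiCIRBP, with SiCIRBP_2 the highest.

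FASTKD5 is required for the processing of mitochondrial transcripts at sites without a tRNA. Its CPM was 27.8 in NC_1, 14.4 in NC_2 and 13.9 in NC_3, and 45.8, 43.1 and 55.7 in SiCIRBP. NC_1 lay near the middle between the other controls and the SiCIRBP values, and the mean of SiCIRBP was 2.58 times that of NC.

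Among the remaining protein-coding genes, PPP1R14B encodes an inhibitor of protein phosphatase 1. Its CPM was 101, 84.9 and 83.0 in NC and 174, 205 and 152 in SiCIRBP, and its TPM, 161 ± 16.3 in NC and 294 ± 27.9 in SiCIRBP (SD, n = 3 each), was the highest of the 23 in both groups. NDRG4 belongs to the NDRG family and is known from heart and brain. It had 15.8, 16.1 and 13.8 CPM in NC and 30.9, 24.3 and 57.4 in SiCIRBP, with SiCIRBP_3 well above SiCIRBP_1 and SiCIRBP_2. MYEOV, named for its overexpression in myeloma, had 5.97, 5.01 and 4.71 CPM in NC and 13.3, 13.3 and 12.7 in SiCIRBP, which made it the gene with the largest ratio between lowest SiCIRBP and highest NC value.

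Zinc finger genes accounted for 3 of the 23 by their ZNF names, and for 2.42% of the genes expressed at this level. ZNF385A, a zinc finger protein that binds RNA and p53, had 9.37, 8.05 and 9.43 CPM in NC and 16.2, 19.4 and 20.5 in SiCIRBP. ZNF200 had 5.90, 5.56 and 4.71 CPM in NC and 9.33, 15.8 and 10.7 in SiCIRBP. In both, the SiCIRBP values lay above the controls, as the choice of genes requires. ZNF542P, a transcribed pseudogene of this family, had 6.01, 5.31 and 4.91 CPM in NC and 11.1, 9.33 and 10.7 in SiCIRBP, close together within each group.

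The remaining genes do not encode a protein of their own in a simple sense. LINC01133 is a long intergenic noncoding RNA on chromosome 1. Its CPM was 9.87, 9.10 and 8.99 in NC and 28.3, 21.03 and 20.8 in SiCIRBP, with an NC mean of 9.32 ± 0.482 (SD, n = 3), and the lowest SiCIRBP value was more than 2 times the highest of them. The last 100 bases before its RefSeq start site (GRCh38.p14, chr1:159961124-159961223, plus strand) are shown for comparison with the promoters above, since they hold neither TATAAA nor GGGCGG. They have CCAAT, in capitals, at 2 places, of which the latter lies inside the gene as GENCODE 29 places it. The 300-base promoter of LINC01133 holds 1 CpG, as that of CPA4 does.
LINC01133: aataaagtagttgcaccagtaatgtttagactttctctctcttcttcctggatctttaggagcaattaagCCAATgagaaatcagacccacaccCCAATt

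RPL22P1 is a processed pseudogene of RPL22, a protein of the large ribosomal subunit, and lies on chromosome 3 from 169483671 to 169484080 (GRCh38, minus strand). It had 6.40, 4.51 and 7.70 CPM in NC and 14.4, 13.9 and 13.4 in SiCIRBP, with NC_3 the highest control. The parent gene RPL22 was at 436 to 476 CPM in NC and 398 to 494 in SiCIRBP, a log2 difference of -0.03. The pseudogene is 410 bases long, and 350 of them lie in 2 stretches identical to the RPL22 transcript, so that reads of the parent could be assigned to either. The stretches meet where RPL22 has 7 bases that the pseudogene lacks, shown in capitals in the GENCODE 29 sequences below, as an example of where reads can tell the genes apart. The first 60 bases of the pseudogene lie outside the identical stretches as well.
RPL22P1: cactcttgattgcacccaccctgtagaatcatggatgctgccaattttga
RPL22: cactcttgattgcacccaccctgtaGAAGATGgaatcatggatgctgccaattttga
In RPL22 these bases lie inside the coding sequence.

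AC139530.3 (ENSG00000262660) is a readthrough transcript that joins MRPL12, of the mitochondrial ribosome, to SLC25A10, the mitochondrial dicarboxylate carrier, on chromosome 17 from 81703371 to 81720539 (GRCh38, plus strand). It spanned 2.25 to 4.32 CPM in NC and 6.52 to 8.43 in SiCIRBP. Of the 31-base words of its transcript, 63.0% also occur in SLC25A10 and 35.5% in MRPL12, and 29 words occur in neither. They span the join between base 701 and base 702 of the transcript, which is shown with the SLC25A10 side in capitals because only reads across it are particular to the readthrough.
AC139530.3: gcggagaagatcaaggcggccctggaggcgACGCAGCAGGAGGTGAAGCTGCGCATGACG
MRPL12 had a log2 difference of 0.38 and SLC25A10 of -0.17, against 1.01 for the readthrough.

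Shared or overlapping sequence bears on other genes of the 23 as well, because the strand used in counting is not given in the sources used here and the counts are estimates that divide reads between candidates. EMC6 shares 71.1% of its 31-base words with P2RX5-TAX1BP3 on the opposite strand, which was at 1.06 to 1.94 CPM in NC and 2.22 to 3.13 in SiCIRBP. ZACN shares 58.1% with EXOC7 on the opposite strand, an exocyst gene at 125 to 140 CPM in NC and 102 to 153 in SiCIRBP. EXOC7 had a log2 difference of 0.04, against 0.92 for ZACN.

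P2RY11 shares 49.4% with the readthrough PPAN-P2RY11 on its own strand, which was at 12.7 to 16.8 CPM in NC and 12.5 to 13.4 in SiCIRBP. The readthrough had a log2 difference of -0.13, against 1.44 for P2RY11. LYPD1 shares 47.9% with GPR39, a zinc-sensing receptor on the opposite strand. GPR39 had 17.2, 11.1 and 9.69 CPM in NC and 25.4, 26.1 and 34.5 in SiCIRBP, a log2 difference of 1.14, larger than the 0.84 of LYPD1. It is the gene just outside the threshold named above, and unless strand was used in counting, the reads of this pair cannot be told apart where they overlap.

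ZNF542P shares words with 3 genes on the opposite strand, 15.002% with AC006116.7, 8.10% with AC006116.10 and 3.03% with ZSCAN5A. AC006116.7 had a log2 difference of 0.34 and AC006116.10 of -0.01, both at low levels of at most 1.11 CPM in any library. ZSCAN5A had 8.76, 3.38 and 4.45 CPM in NC and 11, 11.6 and 15.8 in SiCIRBP, a log2 difference of 1.15. By contrast FASTKD5 shares 3.62% of its words with UBOX5, which had a log2 difference of -0.27, and KLHDC3 shares 7.20% with MEA1, at 0.29. PPP1R14B shares 16.3% of its words with PPP1R14BP3, 8.89% with LIMK2 and 6.42% with PPP1R14BP2, all in the same sense. LIMK2 was at 23.4 to 30.1 CPM, with a log2 difference of 0.02. PPP1R14BP3 was at most at 0.349 CPM and PPP1R14BP2 at 0.068. Of the 23 genes, 15 overlapped a gene on the opposite strand, 65.2% against 59.0% of all genes at this level, and 9 overlapped a gene on the same strand, 39.1% against 35.1%. ECM1, KLHDC8B and NOLC1 shared at most 1.89% of their words with any other gene and overlapped none.

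**Figure D3:**
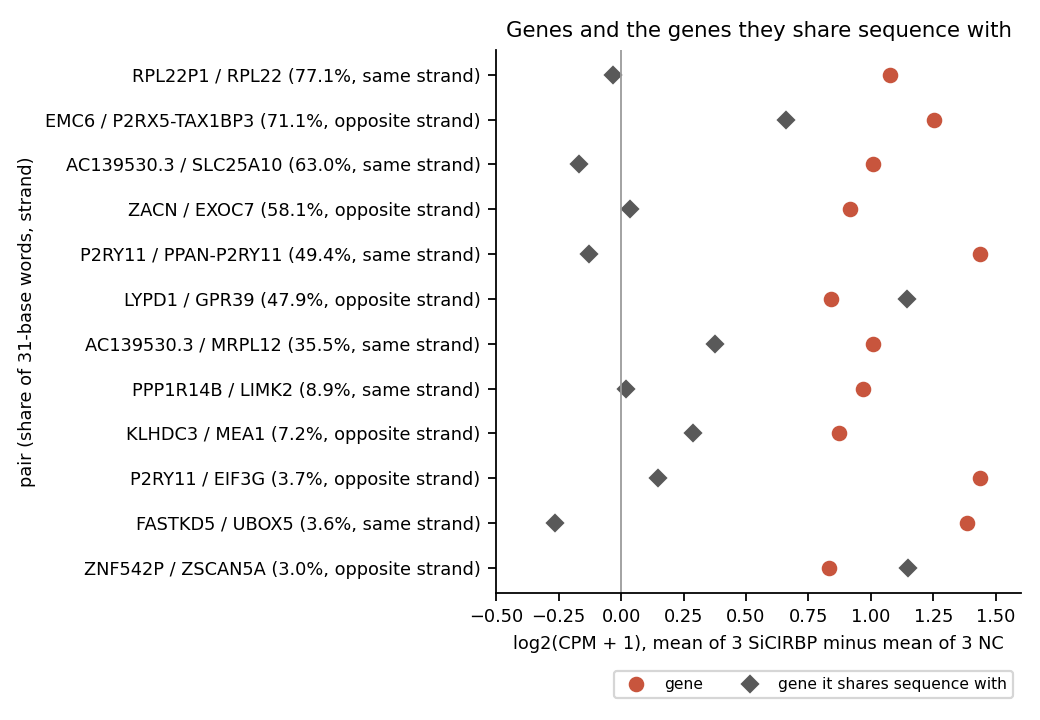
Log2 difference (mean of 3 SiCIRBP minus mean of 3 NC libraries, log2(CPM + 1), no error bars) of genes among the 23 (red) and of the genes with a mean CPM of 1 or more that they share sequence with (grey), with the share of 31-base words and the strand. GPR39 and ZSCAN5A lie to the right of their partners, at 1.14 and 1.15, P2RX5-TAX1BP3 lies at 0.66 and the other grey points are at or below 0.38.

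TPM, in which the length assigned to a gene also enters, gave smaller differences. The median over the 23 genes was 0.80 on the log2(TPM + 1) scale, against -0.14 over the 10686 genes. The median of the 10686 genes was thus also lower than in CPM, where it was -0.06. Why TPM gave smaller differences was not tested. TPM groups did not overlap in 22 of 23 genes, where 9.18% of the 10686 genes had all SiCIRBP values above all NC values, and the TPM ratio reached 1.5 in 9 of 23, against 0.112%. These TPM values come from the same reads as the choice of genes and do not support it independently.

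MYEOV was the exception in TPM. Its TPM was 5.85, 8.12 and 4.60 in NC and 7.38, 15.96 and 7.14 in SiCIRBP, so that the groups overlapped although its CPM values lay far apart. The count divided by TPM, scaled to the median gene of each library, gives the transcript length that the estimation implied. For MYEOV its mean differed by 0.58 (log2) between the groups, the largest change of the 23, but the groups overlapped. This length was -0.78, -1.46 and -0.71 (log2) in NC_1, NC_2 and NC_3. In SiCIRBP_1 and SiCIRBP_3 it was 0.01, and in SiCIRBP_2 it was -1.23, within the range of the controls. MYEOV lies on chromosome 11 from 69294138 to 69367726 (GRCh38, plus strand) and has 12 annotated transcripts.

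For the other genes the implied length moved less. The median change was -0.01 (log2), equal to that over all genes at this precision. It was longer in every SiCIRBP library for P2RY11 alone, at 0.24, where 7.06% of genes were, and shorter in every SiCIRBP library for MARCH4 and PCDH9, at -0.02 and -0.26, where 12.9% were. The differences in the counts of the 23 were thus for the most part not accompanied by a change in the assigned length.

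**Figure D4:**
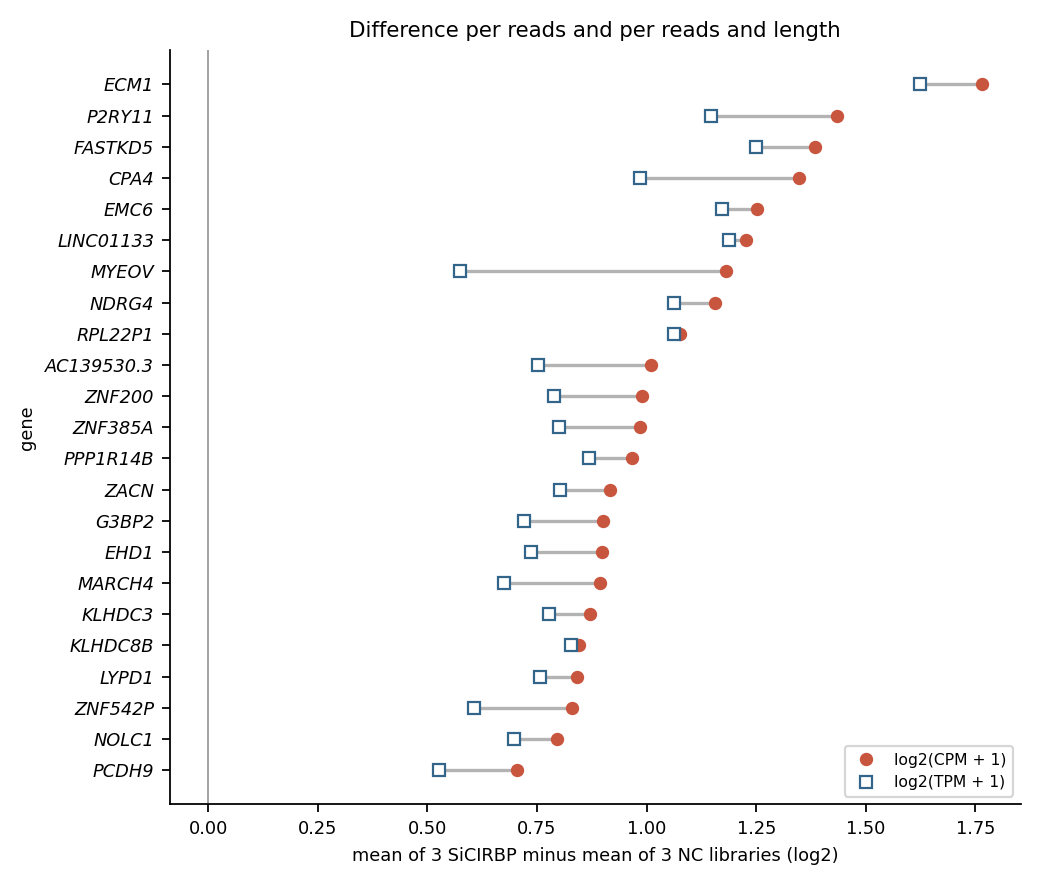
Difference between the groups for each of the 23 genes on the log2(CPM + 1) scale (red circles) and the log2(TPM + 1) scale (open blue squares), as the mean of 3 SiCIRBP minus the mean of 3 NC libraries, no error bars. Every square lies to the left of its circle and right of 0, and the gap is widest for MYEOV, from 1.18 to 0.58.

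The rest of each gene's family or complex was examined next. The relatives are, by construction, genes that did not meet the condition themselves. Lists were drawn up for 14 families or complexes, with 93 other genes, of which 57 could be tested over the 4 libraries of the study's own comparison. In edgeR's quasi-likelihood test, 0 of 57 were called at an adjusted p-value under 0.05 and a 2-fold change, up or down, where 1.82% of the 15421 genes tested were called up and 1.8% down. At an unadjusted p under 0.05 there were 20 of 57, of which 12 were higher and 8 lower, a share of 35.1% against 36.6% of all genes tested, and DESeq2 over the same libraries also called 0. The difference between each gene and its relatives was not tested.

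Below 2-fold, edgeR gave an adjusted p-value under 0.05 for 6 relatives that were higher and 4 that were lower over the 4 libraries, 10.5% and 7.02% of those tested, where 9.62% and 9.76% of all genes tested were. These shares are near those of all genes and are not a result about the relatives. Those higher were EHD2, FASTK, DKC1, SHQ1, G3BP1 and UBAP2L, and those lower were KLHDC2, MARCH6, MARCH8 and NDRG1. All 10 kept their direction over all 6 libraries and with a control left out, which leaves that group with 1 library. Only direction is given for those fits, and keeping it does not mean that the adjusted p-value held. None of them passed in edgeR over all 6 libraries. G3BP1, the close relative of G3BP2 in stress granules, rose by 0.36 over the 4 libraries (log2, standard error 0.09, edgeR adjusted p = 0.0426). Over all 6 it rose by 0.20 (edgeR adjusted p = 0.366). Its groups overlapped there, at 212 to 270 CPM in NC and 240 to 288 in SiCIRBP. DKC1, the pseudouridine synthase of the small nucleolar ribonucleoproteins that NOLC1 accompanies, rose by 0.52 over the 4 libraries (standard error 0.08, edgeR adjusted p = 0.0116). Over all 6 it rose by 0.56 (edgeR adjusted p = 0.1002). It was at 133 to 155 CPM in NC and 183 to 227 in SiCIRBP, without overlap. NDRG1 moved against NDRG4, falling by 0.42 on the log2 scale over the 4 libraries (standard error 0.09, edgeR adjusted p = 0.0228). Over all 6 its log2 fold change was -0.57 (edgeR adjusted p = 0.201), from 233 to 294 CPM in NC to 111 to 223 in SiCIRBP. The values 233 and 111 were those of NC_1 and SiCIRBP_2, which the fit over 4 libraries left out. Over all 6 libraries edgeR gave no adjusted p-value under 0.05 for any relative, with 12 at an unadjusted p under 0.05, and DESeq2 gave one for FASTK, DKC1 and NOP10, which were higher, and for MARCH6, which was lower.

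The 9 other subunits of the endoplasmic reticulum membrane complex had log2 differences between -0.44 for EMC7 and 0.34 for EMC9, where EMC6 had 1.25. EMC7 owed its place to SiCIRBP_1, at 29.4 CPM against 90.0 to 111 in the other 5 libraries. The 5 relatives of FASTKD5 lay between -0.11 for TBRG4 and 0.37 for FASTK, where FASTKD5 had 1.38. The 3 relatives of EHD1 lay between -0.02 for EHD4 and 0.39 for EHD3, where EHD1 had 0.90. Relatives came nearest for NOLC1, at 0.80, with NOP10 at 0.70, and for PCDH9, at 0.70, with PCDH7 at 0.62. NOP10 was at 208 CPM in SiCIRBP_2 and at 67.5 to 105 in the other 5 libraries, so that its difference came mainly from that library.

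The 23 genes lay on 14 chromosomes (GENCODE 29, GRCh38), with 3 each on chromosomes 11 and 17, and the nearest pair was EHD1 and PPP1R14B on chromosome 11, 0.605 Mb apart. In build they were shorter than the genes expressed at this level. Their median gene span was 13897 bases against 32789, the median number of exons of the representative transcript was 5 against 9, and 7 of 23 had 3 exons or fewer, where 12.96% of the genes did. The transcripts were also richer in G and C, at a median of 57.5% against 49.2%. Their median mean CPM was 13.4, against 39.7 over the 10686 genes. By biotype 20 were protein-coding, 2 were pseudogenes and 1 was a long noncoding RNA. GO annotation in the table placed 5 of 23 in the nucleus, 21.7% against 41.6%, 5 at the plasma membrane, 21.7% against 17.8%, and 3 in the extracellular region, 13.04% against 6.03%. These are counts over a short list, and no property was tested.

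RefSeq promoters, from 250 bases before to 50 after a start site, were matched for 15 of the 23 genes, with 24 promoters between them. Their median CpG number was 23 and their median GC content 64.0%, against 14 and 58.7% over 35116 promoters. Those 35116 promoters were not limited to genes expressed at this level, unlike the comparisons of build above. How far expression alone accounts for the differences here and below was not tested. On either strand CCAAT was found in 13 of 24 (54.2%, against 34.6% of all promoters), GGGCGG in 14 (58.3%, against 44.95%), TATAAA in 4 (16.7%, against 11.5%) and TGANTCA in 3 (12.5%, against 7.71%). CACGTG, the E-box, was in 4 (16.7%, against 7.26%), TGACGTCA, the cyclic AMP response element, in 2 (8.33%, against 1.85%), which were those of ZNF200 and G3BP2, CCATNTT in 3 (12.5%, against 15.6%) and CCGGAAGT in 0 (against 4.14%). Promoters of the same gene overlap in part, so that these shares rest on 15 genes at most, and a match of letters is not a site of binding.

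In the tests made across all genes, the 23 were called unevenly, which is given only as a description because the same libraries chose them. Over the 4 libraries edgeR called 15 of 23 up, where it called 1.82% of the genes tested. Over all 6 libraries it called 0 of 15217 genes up, with 3603 genes at an unadjusted p under 0.05 in either direction, whereas DESeq2 called 162 genes up, 1.14% of those it gave an adjusted p-value, of which 14 were among the 23, and 160 down (1.13%), of which 0 were. Those that fell short over the 4 libraries were ZNF200, LYPD1, G3BP2, KLHDC8B, MARCH4, PCDH9, NOLC1 and PPP1R14B, and their log2 fold changes in that fit, from 0.77 for NOLC1 to 0.99 for ZNF200, were below the 2-fold limit.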

How the data were processed

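The 6 RNA-seq libraries, 3 NC and 3 SiCIRBP, were grouped by their labels. Per the labels' processing notes, fastp, HISAT and RSEM were used on hg38, and versions and annotation release are not given in the sources used here. The authors deposited an estimated count per gene and library, not normalized and not always whole, and a TPM value scaled by an assigned length and by library. The authors' own comparison, deposited as a ratio, a log2 ratio and p-values, was not used.

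CPM was the estimated count over the library total. A pseudocount of 1 was added before log2. Counts were rounded and tested with edgeR 4.0.16 (R 4.3.3; TMM, filterByExpr, quasi-likelihood test, Benjamini-Hochberg adjustment), over the study's 4 libraries and over all 6, with DESeq2 1.42.0 beside it. A call required a change of at least 2-fold with an adjusted p-value under 0.05, and standard errors are the log2 fold change over the square root of F. The edgeR fits, over 4 and over 6 libraries, were tried on simulated counts with a fixed spread that was not taken from these data. Nothing is read from that trial about the spread of these libraries. Values per library were planned for the 15 genes of largest ratio, those in a family list chosen at the outset and the 5 of highest mean CPM, and every other gene of the 23 is named once by role. Relatives are named from the family lists, 9 of which were added after the 23 genes were known. The genes and lists were chosen with earlier results of these data known.

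Identifiers were matched to GENCODE 29 (58611 of 58884), and 27 names that the table gives as dates, MARCH4 among them, were replaced by the GENCODE name of the same identifier. Shared sequence was counted in 31-base words of annotated transcripts, on both strands. Promoters came from RefSeq (GRCh38.p14). Libraries were not treated as pairs by replicate number, except in the replicate block. Library totals ranged from 25726259 to 29919566 estimated counts, and the alternatives tried were other scalings, filters, thresholds and tools, the replicate block and each library left out. Protein sequences were not used here.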

Additional observations from a re-analysis of the deposited data

How the results depend on the processing

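The number of genes that met the condition depended on its settings. With TMM library sizes it was 26 and with RLE size factors 27, both including all 23, and with a mean CPM of 10 or more it was 17. A mean CPM of 1 or more gave 59 genes, a ratio of 1.3 gave 93, a ratio of 2 gave 2, and TPM in place of CPM gave 9, which were all among the 23. With each library left out in turn the condition was met by 27 to 144 genes. The number was highest without NC_1 (144), then without SiCIRBP_1 (106), SiCIRBP_2 (55), SiCIRBP_3 (39), NC_3 (32) and NC_2 (27). Fewer libraries had to meet the condition in all of these settings alike, and why the numbers differed between them was not tested. The 4 libraries of the study's comparison, a setting added after seeing the data, gave 240 genes, with all 23 among them. AC139530.3 dropped out without any of the SiCIRBP libraries, when its mean CPM fell below 5. The median log2 CPM difference of the 23 stayed between 0.90 and 1.05 with a library left out, and the median log2 TPM difference was 0.88 with a pseudocount of 0.1, against 0.80.

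Over the 4 libraries, 281 genes were called up and 278 down by edgeR. DESeq2 called 169 up, and 468 were called up with no filter on low counts. With a library left out, which leaves its group with 1 library assumed to vary like the other group, the calls ranged from 24 (without NC_3) to 618 (without SiCIRBP_1) up and from 37 (without NC_3) to 558 (without SiCIRBP_3) down, and were 48 up and 74 down without NC_2. Over all 6 libraries edgeR called 0 up and 0 down, against 162 and 160 by DESeq2 and 177 and 159 with no filter on low counts. With a library left out these counts ranged from 0 to 109 up and from 0 to 124 down, the highest without SiCIRBP_2, with 5 up and 13 down without NC_1. The replicate block gave 1 gene up and 0 down. Whether libraries of the same number were prepared together is not given in the sources used here. The correlations of same-numbered deviations were -0.117, 0.007 and -0.027, which cannot show it either way. Of the 10 relatives with an adjusted p-value under 0.05 over the 4 libraries, all 10 kept it with DESeq2, with no filter on low counts and with RLE size factors. Over all 6 libraries all 10 lost it with edgeR, whereas FASTK, DKC1 and MARCH6 kept it with DESeq2. All 10 kept their direction over the 8 alternatives, which include each of the 4 libraries left out. For the relatives, adjusted p-values of fits with 1 library in a group are not given, and direction alone does not show that they held. There the log2 fold change ranged from 0.20 to 0.47 for G3BP1, from 0.46 to 0.57 for DKC1 and from -0.57 to -0.35 for NDRG1. The cause of these shifts was not tested. Low counts limit the genes near a CPM of 5, such as AC139530.3 with 58 estimated counts in NC_2. No outlier test was run on these groups of 3.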
